A study of Mus musculus with 12 samples.

Results

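The genes described here encode enzymes that add methyl groups to lysines and arginines of histones and other proteins, or remove them from lysines. They were taken by symbol: every Kdm1 to Kdm8, Kmt2 to Kmt5, Mll, numbered Setd and Setdb, Prmt, Ezh1, Ezh2, Ehmt1, Ehmt2, Suv39h and Nsd1 to Nsd3 gene of the array. That gave 57 of 35556 probe sets and 52 of the 19938 genes tested. By role, 8 were arginine methyltransferases, 7 belonged to the H3K4 methyltransferase families, 4 to those of H3K36, 5 to those of H3K9, 2 to those of H3K27 and 3 to those of H4K20, and 5 were other Setd genes and 18 were demethylases. Members were named by family, and some act mainly on proteins other than histones.

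Protein arginine methyltransferases use S-adenosylmethionine to place monomethyl, asymmetric dimethyl or symmetric dimethyl groups on arginine, on histones as well as on splicing and ribosomal proteins. SET-domain enzymes methylate lysine: methylation of H3K4 marks promoters and enhancers, H3K36 trimethylation marks transcribed gene bodies, and H3K9 and H3K27 methylation mark silent chromatin. Kdm1 enzymes are flavin-dependent amine oxidases and the other Kdm enzymes are JmjC dioxygenases. In blood cells, Kdm1a acts with the repressors Gfi1 and Gfi1b, and several of these enzymes are altered in leukaemia.

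The study set out to measure how loss of the transcription factor Zfx alters the expression changes that the transcription factor Myc brings about. Mouse c-Kit+ bone marrow progenitors all carried CreER, a recombinase switched on by tamoxifen, and came from mice with a floxed Zfx allele (Zfx fl/y CreER, labelled Zfx ko) or an intact one (Zfx wt/y CreER, labelled Zfx wt). All mice received tamoxifen, at 5 mg per day by gavage over 3 days, so the controls carried CreER and tamoxifen too. Cells received a Myc retrovirus with a GFP marker or the GFP control virus and were kept 48 hours with IL-3, IL-6 and SCF (10 ng/mL each) in 20% FBS, sorted for GFP and grown 4 more days. RNA from 4 groups of 3 arrays was measured: Myc Zfx ko, Myc Zfx wt, GFP Zfx ko and GFP Zfx wt. The labels name neither the promoter that drives CreER nor the age of the mice. Whether arrays of a group came from separate mice or cultures is not stated either, so p-values measure the spread between arrays, which may be technical.

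Values below are RMA intensities on a linear scale, given in the order of array numbers 1, 2 and 3. Median intensities of the 12 arrays lay between 127 and 137, and the number of arrays limits the precision. The Zfx probe set gave no lower signal where the label was Zfx ko: it averaged 1048 ± 63.2 in Myc Zfx ko against 992 ± 26.4 in Myc Zfx wt, and 1021 ± 64.9 in GFP Zfx ko against 946 ± 72.9 in GFP Zfx wt (SD, n = 3 each). Which part of the transcript its probes cover was not analysed here, so each Zfx comparison below rests on the labels. The Myc probe set averaged 5046 ± 260 in Myc Zfx ko against 2701 ± 145 in GFP Zfx ko, and 5231 ± 343 in Myc Zfx wt against 3014 ± 197 in GFP Zfx wt (SD, n = 3 each). Of 10 myeloid progenitor markers, Mpo had group means of 10447 to 13570, Elane of 12021 to 15925 and Kit of 896 to 1249. The 10 summed to 59054 to 68857 in GFP Zfx ko and 66669 to 76148 in GFP Zfx wt. In the same groups 15 late neutrophil markers summed to 80118 to 100369 and 80924 to 99796. How far the cells had matured in culture was not tested. None of 6 T cell or 5 B cell marker genes passed in any comparison.

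With Myc, 4 of 8 arginine methyltransferase genes were higher than with GFP in both genotypes, with Setd6, Setdb1 and Kdm1a. In Zfx wt cells, 8 of the 52 members passed an adjusted p of 0.05 (limma, Benjamini-Hochberg over all 19938 genes), 7 higher and 1 lower. Prmt1, Prmt3, Prmt5, Prmt7, Setd6, Setdb1 and Kdm1a were the higher ones, by 1.22-fold to 1.54-fold, and Kdm7a was lower. That is 15.4% of the members, where 9.28% of all genes passed, 6.17% higher and 3.11% lower. Of the 52 members, 48 were brighter than the median probe set, and among the 10744 genes that bright 16.5% passed, so the members' share was close to that of other bright genes. In Zfx ko cells, 14 members passed, 11 higher and 3 lower (26.9%, where 13.2% of all genes passed, 8.58% higher and 4.59% lower, and 23.2% of the bright genes). All 7 genes that were higher in Zfx wt were among the 11 that were higher in Zfx ko. The 2 comparisons share no arrays, but they take their spread from one fit, and arrays of equal number deviated together. How many of all genes were higher in both was not counted. The other 4 higher members in Zfx ko were Suv39h2, Ehmt1, Kdm2b and Setd1a, and the 3 lower ones were Kdm7a, Kdm4c and Kmt2e. The median member differed by 0.02 in Zfx wt and 0.06 in Zfx ko on the log2 scale, against 0.00 and 0.01 over all genes. With the array number as a block, 15 members passed in Zfx wt, 13 higher and 2 lower, where 20.5% of all genes did, 12.2% higher and 8.25% lower. Without array Myc Zfx wt 1, Myc Zfx wt 3 or GFP Zfx wt 3, the count in Zfx wt was 5.

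**Figure D1:**
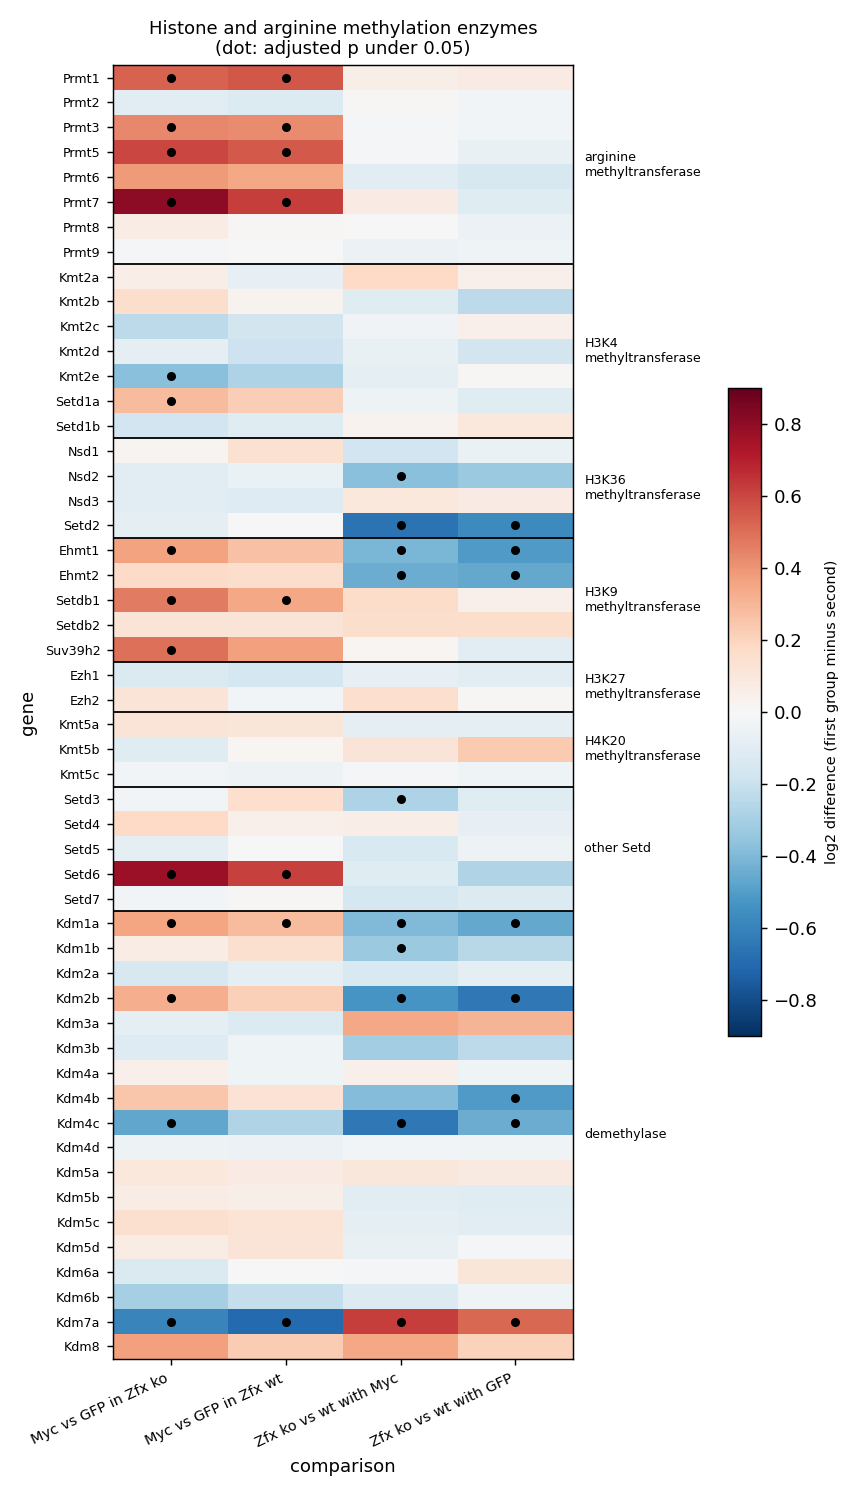
Log2 difference of each of the 52 genes (rows, grouped by role) in the 4 comparisons (columns), as the first group named minus the second. Red is higher, blue is lower and a dot marks an adjusted p under 0.05. The 4 higher arginine methyltransferase genes stand out in both Myc columns, and 6 genes are lower in both Zfx columns.

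The arginine methyltransferases had the highest median Myc difference of the roles. The 5 H3K9 methyltransferases came next, with medians of 0.26 in Zfx wt and 0.36 in Zfx ko on the log2 scale. Of 8 arginine methyltransferases measured, 4 rose with Myc in Zfx wt and the same 4 rose in Zfx ko, with family medians of 0.39 and 0.41. Promoter windows of these 4 genes (RefSeq, GRCm38.p6, 250 bases before to 50 after the annotated start, read along the gene's strand) are printed to show where the canonical Myc E-box does and does not occur. Capitals mark CACGTG, which reads the same on both strands. The windows are chr7:44986371-44986670 (- strand), chr7:49778108-49778407 (+ strand), chr14:54517421-54517720 (- strand) and chr8:106210804-106211103 (+ strand), in the order of the lines.
Prmt1: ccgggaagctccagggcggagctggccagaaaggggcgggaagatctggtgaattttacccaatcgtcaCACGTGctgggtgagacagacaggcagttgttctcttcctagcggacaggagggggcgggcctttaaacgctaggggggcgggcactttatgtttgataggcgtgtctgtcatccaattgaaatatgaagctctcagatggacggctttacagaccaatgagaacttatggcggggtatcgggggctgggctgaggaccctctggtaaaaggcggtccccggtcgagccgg
Prmt3: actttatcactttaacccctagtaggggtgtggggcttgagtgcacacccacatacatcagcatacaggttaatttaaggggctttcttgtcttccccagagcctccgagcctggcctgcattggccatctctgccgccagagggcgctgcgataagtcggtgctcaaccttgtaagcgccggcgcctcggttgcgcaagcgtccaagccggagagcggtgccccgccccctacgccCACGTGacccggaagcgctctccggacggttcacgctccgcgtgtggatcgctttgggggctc
Prmt5: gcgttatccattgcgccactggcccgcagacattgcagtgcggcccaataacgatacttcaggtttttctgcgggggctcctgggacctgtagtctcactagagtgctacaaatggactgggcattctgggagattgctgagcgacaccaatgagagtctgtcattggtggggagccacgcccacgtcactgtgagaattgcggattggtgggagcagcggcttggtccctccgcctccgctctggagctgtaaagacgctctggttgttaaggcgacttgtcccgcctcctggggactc
Prmt7: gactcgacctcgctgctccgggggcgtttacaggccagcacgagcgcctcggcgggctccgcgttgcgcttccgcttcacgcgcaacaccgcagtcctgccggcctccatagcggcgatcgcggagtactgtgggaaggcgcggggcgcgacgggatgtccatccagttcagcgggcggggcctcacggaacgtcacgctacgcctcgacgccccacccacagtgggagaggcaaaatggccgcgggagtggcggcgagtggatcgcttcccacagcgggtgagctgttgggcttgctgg
The motif began at -181 in Prmt1 and at -13 in Prmt3, counted from the start site, and these letters were not in the windows of Prmt5 and Prmt7. RefSeq windows were found for 41 of the 52 genes, and 6 of their 53 windows held CACGTG (11.3%), where 7.15% of 32851 mouse promoter windows did. The genes were Prmt1, Prmt3, Ehmt2, Kdm4c and Kdm6a. Kdm4c held it at -85 and -53 and was lower with Myc in Zfx ko (adjusted p = 0.0108). Ehmt2 and Kdm6a passed in neither Myc comparison. A match describes letters and is not evidence of binding.

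Prmt5, which makes symmetric dimethylarginine, had intensities of 4108, 3897 and 4339 with Myc against 2557, 2760 and 2838 with GFP in Zfx ko cells. In Zfx wt cells it had 4181, 3905 and 4406 with Myc against 2740, 2975 and 2816 with GFP. Every Myc array lay above every GFP array. Here and below, such separation describes the arrays of genes chosen by adjusted p. Its share over all genes was not counted, and it also occurred in members that did not pass, such as Kmt2c and Setd5 in Zfx ko. Prmt5 was 1.51-fold higher in Zfx ko (log2 0.60, SE 0.067, adjusted p = 8.92e-04) and 1.46-fold higher in Zfx wt (95% interval 1.32 to 1.62, adjusted p = 0.0019).

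Prmt7, which makes monomethylarginine, had 1450, 1352 and 1663 with Myc against 886, 719 and 958 with GFP in Zfx ko cells. Prmt7 in Zfx wt cells had 1403, 1279 and 1546 with Myc against 986, 858 and 903 with GFP. Again no Myc array overlapped a GFP array. It was 1.75-fold higher in Zfx ko (log2 0.81, SE 0.119, adjusted p = 0.0023) and 1.54-fold higher in Zfx wt (log2 0.62, adjusted p = 0.0100).

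Prmt3, a cytosolic enzyme that methylates a small-subunit ribosomal protein, had 1329, 1381 and 1419 with Myc against 897, 1008 and 1180 with GFP in Zfx ko cells. Its Zfx wt values were 1466, 1350 and 1373 with Myc against 1054, 1009 and 1052 with GFP. The groups did not overlap in either genotype. It was 1.35-fold higher in Zfx ko (adjusted p = 0.00947, and 0.0654 in a fit of those groups alone) and 1.34-fold higher in Zfx wt (adjusted p = 0.0127, and 0.0506 without array Myc Zfx wt 1).

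Prmt1, the main source of asymmetric dimethylarginine in mammalian cells, had 1223, 1431 and 1430 with Myc against 773, 1024 and 1041 with GFP in Zfx ko cells. In Zfx wt cells it had 1157, 1418 and 1373 with Myc against 756, 1091 and 853 with GFP. The groups did not overlap, but array 1 was the lowest of its 3 in every group. Prmt1 was 1.45-fold higher in Zfx ko (adjusted p = 0.0452) and 1.47-fold higher in Zfx wt (adjusted p = 0.0474). Leaving out any of 9 arrays in Zfx ko (all but Myc Zfx wt 1, GFP Zfx wt 1 and GFP Zfx wt 2) or any of 10 arrays in Zfx wt (all but GFP Zfx ko 1 and GFP Zfx wt 2) took these past 0.05, to at most 0.157 and 0.162. Both calls were also lost with arrays centred on their medians (0.075 and 0.0889), over all probe sets (0.0743 and 0.079) and in a fit of the compared groups alone (0.0689 and 0.0824).

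The other 4 arginine methyltransferases did not pass. Prmt6, another asymmetric dimethylating enzyme, had 275, 334 and 356 with Myc against 204, 251 and 288 with GFP in Zfx ko, and 314, 341 and 378 with Myc against 222, 290 and 306 with GFP in Zfx wt. The arrays of its groups overlapped in Zfx ko. With the array number as a block, which compares same-numbered arrays, its adjusted p was 0.00132 in Zfx ko and 0.00293 in Zfx wt, against 0.159 and 0.251 without it. Prmt8, a brain enzyme, was dim at 35.6 to 42.3, and Prmt2 lay between 112 and 143 over the 12 arrays. Carm1, also called Prmt4 and outside the symbol rule, averaged 4550 ± 407 in Myc Zfx ko against 2682 ± 51.5 in GFP Zfx ko, and 4811 ± 314 in Myc Zfx wt against 3308 ± 78.9 in GFP Zfx wt (SD, n = 3 each). It rose 1.69-fold in Zfx ko (adjusted p = 4.92e-04) and 1.45-fold in Zfx wt (adjusted p = 0.00256).

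**Figure D2:**
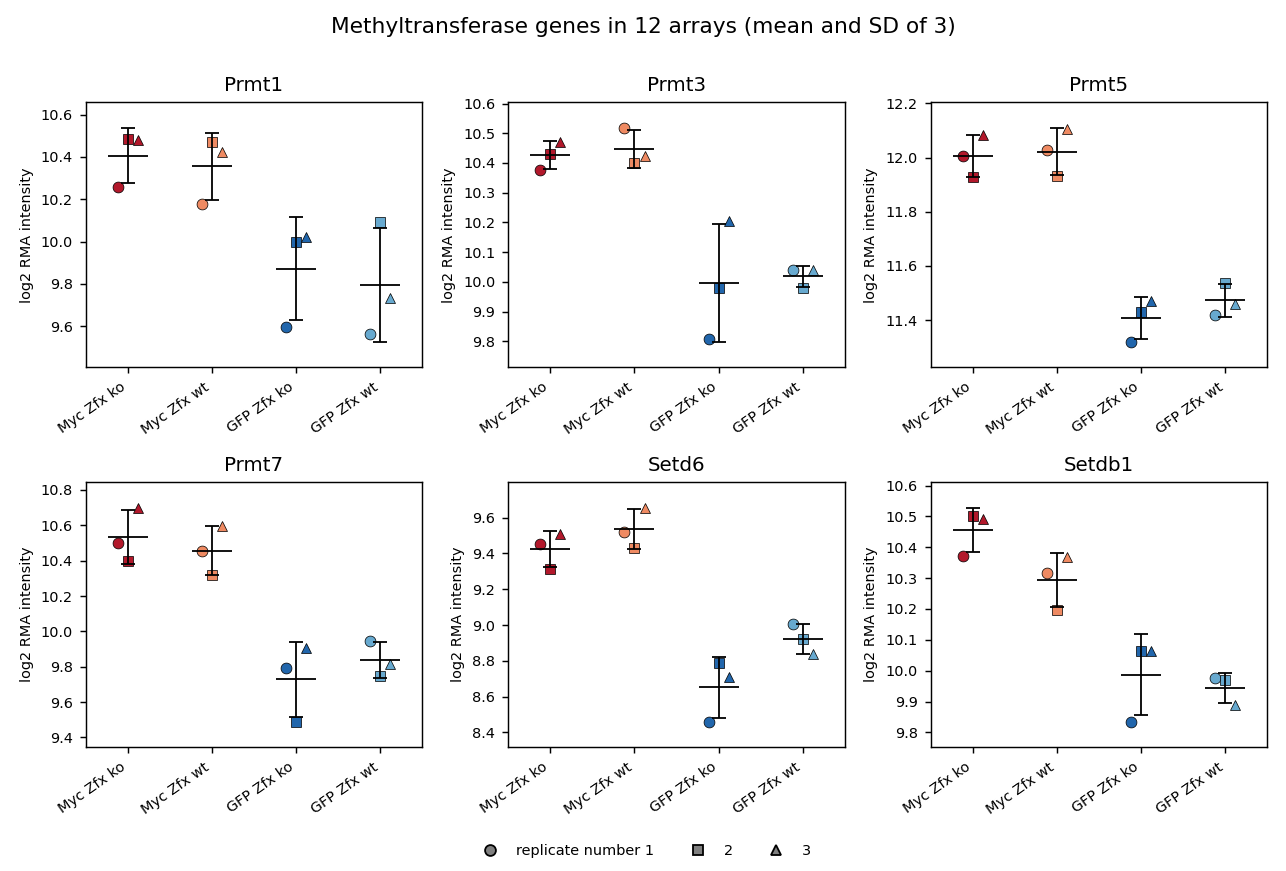
Log2 RMA intensity (y axis) of Prmt1, Prmt3, Prmt5, Prmt7, Setd6 and Setdb1 in the 4 groups (x axis). Each point is an array, its symbol is the array number, and the bar is the mean ± SD of 3. In each panel the Myc arrays of a genotype lie above its GFP arrays.

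Proteins that work with these enzymes were looked at as well. Among 6 partners of Prmt5 and Prmt1, Wdr77, the obligate cofactor of Prmt5, rose 1.40-fold in Zfx ko and 1.52-fold in Zfx wt (adjusted p = 0.0126 and 0.00687). Clns1a, which brings splicing proteins to Prmt5, rose 1.49-fold and 1.34-fold (adjusted p = 0.00534 and 0.0249). Ndfip1 fell 1.41-fold in Zfx ko (adjusted p = 0.00158), and Btg1, which binds Prmt1, fell 1.59-fold in Zfx wt (adjusted p = 0.0476). In Zfx ko Btg1 was 1.47-fold lower without passing (adjusted p = 0.0773, and 0.00234 with the block). Ndfip1 is an adaptor of ubiquitin ligases, so that list was not purely one of methyltransferase cofactors. Between genotypes Ndfip1 was 2.43-fold lower in Zfx ko with Myc and 1.81-fold lower with GFP (adjusted p = 5.05e-06 and 8.44e-05). Btg1 differed between genotypes by 0.62 with Myc and 0.51 with GFP on the log2 scale (adjusted p = 0.0866 and 0.193, and 0.00227 and 0.00702 with the block). A further list held genes for S-adenosylmethionine supply and the clearing of its products, and relatives of them such as Ahcyl1. Of its 8 measured genes, 4 rose in Zfx ko (Mtrr, Mtap, Adk and Ahcyl1) and 3 in Zfx wt (Mtrr, Mtap and Adk). Mtrr, which keeps methionine synthase active, rose by 0.76 and 0.59 on the log2 scale (adjusted p = 0.00169 and 0.00687). Mtap, which salvages methylthioadenosine, rose 1.69-fold and 1.72-fold (adjusted p = 0.00388 and 0.005). Adk, which removes adenosine, rose 1.57-fold and 1.66-fold (adjusted p = 0.00801 and 0.0068).

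Setd6, a lysine methyltransferase known in human cells to act on the NF-kappaB subunit RelA, had 701, 636 and 727 with Myc against 352, 442 and 418 with GFP in Zfx ko cells. Zfx wt cells had 735, 690 and 806 with Myc against 514, 486 and 457 with GFP. The lowest Myc array was above the highest GFP array in each genotype. It was 1.71-fold higher in Zfx ko (log2 0.77, SE 0.0952, adjusted p = 0.00116) and 1.53-fold higher in Zfx wt (adjusted p = 0.0046).

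Among the H3K9 methyltransferases 3 of 5 rose with Myc in Zfx ko and 1 of 5 in Zfx wt, with none lower. Setdb1, which trimethylates H3K9 at retroelements with Trim28, had 1326, 1451 and 1440 with Myc against 913, 1069 and 1070 with GFP in Zfx ko cells. Its Zfx wt values were 1275, 1174 and 1321 with Myc against 1007, 1004 and 948 with GFP. The groups did not overlap in either genotype. It was 1.38-fold higher in Zfx ko (adjusted p = 0.00348) and 1.27-fold higher in Zfx wt (adjusted p = 0.0169). The Zfx wt call was lost without array Myc Zfx wt 1, Myc Zfx wt 3 or GFP Zfx wt 3, at 0.0583, 0.0779 and 0.0748. Trim28 itself rose 1.39-fold in Zfx ko (adjusted p = 0.00572) and was 1.22-fold higher in Zfx wt without passing (adjusted p = 0.0622, and 0.00517 with the block). Of 6 H3K9 readers and partners, Cbx1, Wiz and Trim28 rose in Zfx ko and Cbx1, a heterochromatin protein, in Zfx wt.

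Suv39h2, a heterochromatin H3K9 methyltransferase, averaged 224 ± 10.9 in Myc Zfx ko against 160 ± 17.7 in GFP Zfx ko, and 221 ± 9.12 in Myc Zfx wt against 172 ± 26 in GFP Zfx wt (SD, n = 3 each). It rose 1.41-fold in Zfx ko (adjusted p = 0.0141, and 0.0519 without array GFP Zfx ko 1). In Zfx wt its adjusted p was 0.0622, and 0.0182 with the block. Ehmt1, whose arrays are given with the Zfx comparisons below, was 1.28-fold higher in Zfx ko (adjusted p = 0.0189). That call was lost without Myc Zfx ko 1, Myc Zfx ko 3 or GFP Zfx ko 1, at 0.0596, 0.0608 and 0.0669. In Zfx wt the adjusted p of Ehmt1 was 0.0869, and 0.0249 with the block.

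Among the 7 H3K4 family genes 1 rose and 1 fell with Myc in Zfx ko, and 0 passed in Zfx wt. Setd1a, a catalytic subunit of a COMPASS complex that methylates H3K4, averaged 1700 ± 77.1 in Myc Zfx ko against 1394 ± 61.1 in GFP Zfx ko (SD, n = 3 each) and rose 1.22-fold (adjusted p = 0.0364). Without array GFP Zfx ko 1, Myc Zfx wt 2, Myc Zfx ko 2, Myc Zfx wt 3, Myc Zfx ko 3 or GFP Zfx ko 3 it did not pass (0.0501 to 0.129), nor with median centring (0.061), over all probe sets (0.0589) or with the compared groups alone (0.057). In Zfx wt its adjusted p was 0.124, and 0.0234 with the block. Kmt2e, a family member that lacks methyltransferase activity, averaged 1771 ± 75.8 in Myc Zfx ko against 2296 ± 106 in GFP Zfx ko (SD, n = 3 each) and was 1.30-fold lower (adjusted p = 0.0135, and 0.0502 without GFP Zfx ko 3). In Zfx wt it differed by -0.28 on the log2 scale (adjusted p = 0.0653, and 0.0126 with the block). Of 12 genes for COMPASS subunits and partners, some found in only one kind of complex, 4 rose in Zfx ko (Ash2l, Wdr82, Dpy30 and Cxxc1) and 2 in Zfx wt (Ash2l and Wdr82). Ash2l, a core subunit, rose 1.26-fold in both genotypes (adjusted p = 0.0183 in Zfx ko and 0.0235 in Zfx wt).

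Among 18 demethylases, 2 were higher and 2 lower with Myc in Zfx ko, and 1 was higher and 1 lower in Zfx wt. Kdm1a, which removes methyl groups from H3K4, had 820, 893 and 931 with Myc against 662, 684 and 722 with GFP in Zfx ko cells. In Zfx wt cells it had 1122, 1196 and 1153 with Myc against 1000, 955 and 896 with GFP. The Myc arrays of each genotype lay above its GFP arrays, and the Zfx wt arrays with GFP lay above all Zfx ko arrays with GFP. Kdm1a was 1.28-fold higher with Myc in Zfx ko (adjusted p = 0.00636) and 1.22-fold higher in Zfx wt (adjusted p = 0.0213). The Zfx wt call did not hold without Myc Zfx wt 2, Myc Zfx wt 3, GFP Zfx wt 2 or GFP Zfx wt 3, at 0.0672, 0.0739, 0.0506 and 0.0944, or with a trended and robust prior, at 0.0507. Kdm2b, a H3K36 demethylase that brings a Polycomb complex to CpG islands, was 1.25-fold higher in Zfx ko (adjusted p = 0.0146, and 0.0662 without Myc Zfx ko 3 and 0.0558 with the compared groups alone). Its adjusted p in Zfx wt was 0.103, and 0.0408 with the block. Kdm4c, a demethylase of H3K9 and H3K36, was 1.38-fold lower with Myc in Zfx ko (adjusted p = 0.0108). Kdm8, a JmjC protein, differed by 0.37 in Zfx ko (adjusted p = 0.0505, and 0.00189 with the block).

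Marker genes of several cell types moved with Myc as well. Of 15 late neutrophil marker genes, 11 were lower with Myc in Zfx ko and 7 in Zfx wt, and their summed intensities were 49076 to 56852 in Myc Zfx ko against 80118 to 100369 in GFP Zfx ko, and 41884 to 57684 in Myc Zfx wt against 80924 to 99796 in GFP Zfx wt. Of 14 mast cell and basophil markers, 6 were lower in each genotype and 1 was higher in Zfx wt, with sums of 5876 to 10085 in Myc Zfx ko against 14531 to 19277 in GFP Zfx ko, and 11212 to 26334 in Myc Zfx wt against 24470 to 30754 in GFP Zfx wt. Of 9 erythroid markers, 6 were higher in Zfx ko and 1 in Zfx wt, with sums of 6111 to 11480 in Myc Zfx ko against 4454 to 5123 in GFP Zfx ko. Of 10 myeloid progenitor markers, Cd34 and Spi1 were lower in Zfx ko and Spi1 in Zfx wt, and with the block 7 were lower in Zfx ko and 2 in Zfx wt. None of 6 megakaryocyte markers passed (2 lower in Zfx ko and 1 in Zfx wt with the block), with sums of 5806 to 17145 in Myc Zfx ko against 21490 to 28003 in GFP Zfx ko, and 2110 to 7621 in Myc Zfx wt against 7593 to 14358 in GFP Zfx wt. Of 12 proliferation genes, Mcm2 was higher in Zfx ko and Mki67 was lower in Zfx wt. Of 9 monocyte markers, Fcgr4 was lower in both genotypes. The part of these shifts in the Myc results was not tested, and in bulk RNA fewer cells of a type and less RNA per cell cannot be told apart.

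Between Zfx ko and Zfx wt most members that passed were lower in Zfx ko. Demethylases gave more of these than any other role, but they were also the largest role, with 18 of the 52 members. Under each virus 4 of 18 demethylases and 2 of 5 H3K9 enzymes were lower, and of 4 H3K36 enzymes 2 were lower with Myc and 1 with GFP. With Myc, 10 of 52 members passed, 1 higher and 9 lower (19.2%, where 5.46% of all genes passed, 1.74% higher and 3.72% lower, and 9.13% of the bright genes). With GFP, 8 passed, 1 higher and 7 lower (15.4%, where 4.11% of all genes passed, 1.17% higher and 2.94% lower, and 6.94% of the bright genes). Kdm2b, Kdm1a, Ehmt1, Ehmt2, Setd2 and Kdm4c were lower under both viruses, and Kdm7a was higher under both. These 2 comparisons share no arrays, but each shares its arrays with the Myc comparisons, and the share of all genes called in both was not counted. None of the 8 arginine methyltransferases passed in either, with family medians of -0.01 with Myc and -0.05 with GFP on the log2 scale. The count with Myc was 6 without Myc Zfx ko 2, and 5 in a fit of those 2 groups alone. The count with GFP was 5 without GFP Zfx wt 1, GFP Zfx wt 2 or GFP Zfx ko 2, and 4 without GFP Zfx wt 3.

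Kdm2b had 509, 443 and 514 in Zfx ko against 749, 672 and 697 in Zfx wt with Myc. With GFP it had 394, 384 and 389 in Zfx ko against 637, 625 and 565 in Zfx wt. Each Zfx ko array lay below each Zfx wt array, also across viruses. Kdm2b was 1.45-fold lower with Myc (log2 -0.53, SE 0.0727, adjusted p = 0.00236) and 1.56-fold lower with GFP (log2 -0.64, adjusted p = 7.75e-04).

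Kdm1a, with the arrays given above, fell to 881 ± 56.5 in Myc Zfx ko, against 1157 ± 37 in Myc Zfx wt, and to 689 ± 30.6 in GFP Zfx ko, against 950 ± 52.3 in GFP Zfx wt (SD, n = 3 each). It was 1.31-fold lower with Myc (adjusted p = 0.00637) and 1.38-fold lower with GFP (adjusted p = 0.00314). Kdm1a and Kdm7a were each called in all 4 comparisons, and the window of Kdm1a is shown. That window (chr4:136602674-136602973, - strand, RefSeq GRCm38.p6) held neither CACGTG nor AGGCCT, the core of the reported Zfx motif, so it has no capitals:
Kdm1a: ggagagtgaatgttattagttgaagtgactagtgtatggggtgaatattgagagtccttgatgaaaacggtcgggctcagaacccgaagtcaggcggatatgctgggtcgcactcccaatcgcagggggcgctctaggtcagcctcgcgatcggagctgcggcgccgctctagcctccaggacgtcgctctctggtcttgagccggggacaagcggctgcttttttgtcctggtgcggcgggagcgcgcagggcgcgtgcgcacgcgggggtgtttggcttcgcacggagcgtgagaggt
AGGCCT, which also reads the same on both strands and shares no overlap with CACGTG, was in 3 of 53 member windows (5.66%), where 10.3% of all windows held it. The 3 genes were Kmt5a, Prmt2 and Prmt9, and none of them passed in any comparison.

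Of 9 genes for proteins that bind Kdm1a, 2 were higher in Zfx ko with Myc (Gfi1b and Rcor2) and 1 with GFP (Gfi1b). Gfi1b, a repressor of erythroid and megakaryocytic cells that recruits Kdm1a, was 2.15-fold higher with Myc and 2.07-fold higher with GFP (adjusted p = 0.0174 and 0.0264). Rcor2, a CoREST scaffold, was 2.01-fold higher with Myc (adjusted p = 0.0179), and with GFP its log2 difference was 0.54 (adjusted p = 0.221, and 0.0412 with the block).

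Ehmt1 and Ehmt2, which form the heterodimer that dimethylates H3K9, were both lower. Ehmt2 had 1029, 979 and 940 in Zfx ko against 1401, 1256 and 1360 in Zfx wt with Myc. Under GFP the values were 793, 898 and 925 in Zfx ko against 1213, 1207 and 1179 in Zfx wt. No Zfx ko array reached a Zfx wt array. It was 1.36-fold lower with Myc (adjusted p = 0.00452) and 1.38-fold lower with GFP (adjusted p = 0.00427). The first of the gene's RefSeq windows (chr17:34898224-34898523, + strand) is shown as a member that held CACGTG at 2 places, at -232 and -26, and whose Myc differences did not pass:
Ehmt2: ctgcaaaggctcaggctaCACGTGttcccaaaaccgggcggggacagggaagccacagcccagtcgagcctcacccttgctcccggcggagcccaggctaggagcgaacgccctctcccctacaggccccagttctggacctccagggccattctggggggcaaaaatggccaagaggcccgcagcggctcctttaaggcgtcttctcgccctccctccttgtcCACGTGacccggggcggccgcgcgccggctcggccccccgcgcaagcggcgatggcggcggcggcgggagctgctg
Ehmt1 had 634, 583 and 603 in Zfx ko against 918, 749 and 760 in Zfx wt with Myc. With GFP it had 458, 481 and 478 in Zfx ko against 722, 619 and 675 in Zfx wt. The groups did not overlap, and array 1 of Myc Zfx wt was the highest. It was 1.33-fold lower with Myc (adjusted p = 0.0196, but 0.0684 without Myc Zfx ko 2, 0.0663 without Myc Zfx ko 3 and 0.083 with the compared groups alone) and 1.42-fold lower with GFP (adjusted p = 0.00802).

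Setd2, the enzyme that trimethylates H3K36 in transcribed genes, had 878, 1061 and 884 in Zfx ko against 1432, 1608 and 1418 in Zfx wt with Myc. Under GFP its values were 848, 1050 and 1108 in Zfx ko against 1384, 1547 and 1515 in Zfx wt. The groups stood well apart under both viruses. Setd2 was 1.58-fold lower with Myc (log2 -0.66, SE 0.11, adjusted p = 0.0066) and 1.49-fold lower with GFP (adjusted p = 0.0167, but 0.0587 without GFP Zfx wt 2, 0.0711 without GFP Zfx wt 3 and 0.0574 with the compared groups alone). A second probe set of the gene differed in the same direction, by -0.66 with Myc and -0.60 with GFP, and did not pass (adjusted p = 0.110 and 0.174 over all probe sets). Nsd2, which dimethylates H3K36, averaged 985 ± 59.6 in Myc Zfx ko against 1275 ± 66.3 in Myc Zfx wt (SD, n = 3 each; adjusted p = 0.0429). Leaving out any of 10 arrays, all but GFP Zfx ko 1 and GFP Zfx ko 3, took that call past the threshold, to between 0.0535 and 0.155. Median centring, a trended and robust prior, all probe sets and the compared groups alone did so too (0.0968, 0.055, 0.0803 and 0.0542). With GFP, Nsd2 averaged 1059 ± 135 in Zfx ko against 1330 ± 65.5 in Zfx wt (SD, n = 3 each), with an adjusted p of 0.0784, and 0.0247 with the block.

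Kdm4c had 440, 485 and 388 in Zfx ko against 698, 724 and 626 in Zfx wt with Myc. With GFP it had 599, 574 and 637 in Zfx ko against 880, 738 and 853 in Zfx wt. The Myc Zfx ko arrays were the lowest of the 12, and groups did not overlap under either virus. It was 1.56-fold lower with Myc (adjusted p = 0.00403) and 1.36-fold lower with GFP (adjusted p = 0.0303). The GFP call was lost without GFP Zfx ko 1, GFP Zfx ko 2, GFP Zfx ko 3, GFP Zfx wt 1 or GFP Zfx wt 3, at 0.082, 0.102, 0.0552, 0.106 and 0.122, and over all probe sets or with the compared groups alone, at 0.0567 and 0.0553. Kdm4b, a close relative with the same targets, averaged 346 ± 50.1 in Myc Zfx ko against 452 ± 31.8 in Myc Zfx wt, and 291 ± 25.7 in GFP Zfx ko against 413 ± 15.9 in GFP Zfx wt (SD, n = 3 each). It was 1.42-fold lower with GFP (adjusted p = 0.0207), a call lost without GFP Zfx ko 1, GFP Zfx ko 2, GFP Zfx wt 1, GFP Zfx wt 2 or GFP Zfx wt 3 (0.0505 to 0.0926). With Myc its log2 difference was -0.39 (adjusted p = 0.0543, and 0.00205 with the block).

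Kdm1b, the other flavin-dependent H3K4 demethylase, averaged 189 ± 11.6 in Myc Zfx ko against 238 ± 18.2 in Myc Zfx wt (SD, n = 3 each) and was 1.26-fold lower (adjusted p = 0.0473). It did not pass without any one of 9 arrays, all but GFP Zfx wt 1, Myc Zfx wt 2 and GFP Zfx wt 3 (0.0503 to 0.164), nor with a trended and robust prior, over all probe sets or with the compared groups alone (0.0815, 0.0865 and 0.0974). Setd3, an actin histidine methyltransferase despite its family name, averaged 1035 ± 4.81 in Myc Zfx ko against 1256 ± 42.1 in Myc Zfx wt (SD, n = 3 each) and was 1.21-fold lower (adjusted p = 0.0188). Without Myc Zfx wt 1, Myc Zfx wt 2, Myc Zfx ko 2 or Myc Zfx ko 3 its adjusted p was 0.0636, 0.0692, 0.0556 and 0.0593, and it was 0.0517 with a trended and robust prior and 0.0519 with the compared groups alone. Kdm3a and Kdm3b, both H3K9 demethylases, differed in opposite directions and passed with the block only. Kdm3a differed by 0.35 with Myc and 0.31 with GFP (0.00676 and 0.0141 with the block, 0.181 and 0.279 without). Kdm3b differed by -0.31 and -0.24 (0.00511 and 0.0229 with the block, 0.165 and 0.376 without).

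**Figure D3:**
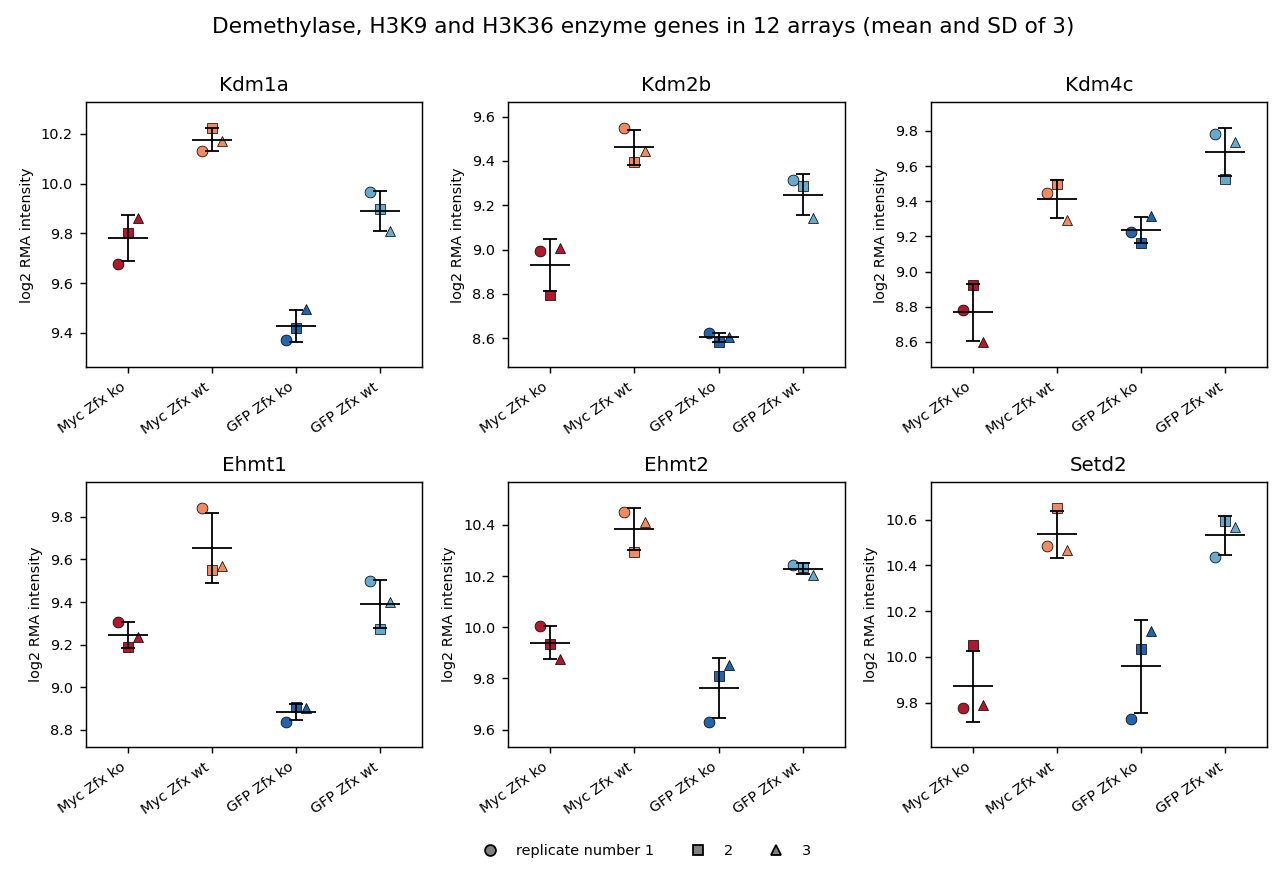
Log2 RMA intensity (y axis) of Kdm1a, Kdm2b, Kdm4c, Ehmt1, Ehmt2 and Setd2 in the 4 groups (x axis). Each point is an array, its symbol is the array number, and the bar is the mean ± SD of 3. In each panel the Zfx ko arrays of a virus lie below its Zfx wt arrays.

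Kdm7a, a demethylase of H3K9 and H3K27, was the only member that passed as higher in Zfx ko without the block. It was also lower with Myc in both genotypes, where Kdm4c and Kmt2e were called lower in Zfx ko only. It had 2512, 2141 and 2089 in Zfx ko against 1702, 1474 and 1232 in Zfx wt with Myc. Under GFP, Kdm7a had 3332, 3225 and 3616 in Zfx ko against 2574, 2242 and 2305 in Zfx wt. The 3 GFP Zfx ko arrays were the highest and the 3 Myc Zfx wt arrays the lowest of the 12. Kdm7a was 1.51-fold lower with Myc in Zfx ko (log2 -0.60, SE 0.116, adjusted p = 0.00802) and 1.63-fold lower in Zfx wt (95% interval 1.36 to 1.94, adjusted p = 0.00578). It was 1.54-fold higher in Zfx ko with Myc (adjusted p = 0.0125, but 0.0747 in a fit of those groups alone) and 1.43-fold higher with GFP (adjusted p = 0.0351). The last call was lost without any one of GFP Zfx wt 1, GFP Zfx wt 2, GFP Zfx wt 3, GFP Zfx ko 1, GFP Zfx ko 2, GFP Zfx ko 3 or Myc Zfx wt 2 (0.0541 to 0.130), and over all probe sets (0.0652). A second Kdm7a probe set differed by -0.76 and -0.77 with Myc in Zfx ko and Zfx wt (adjusted p = 0.0216 and 0.0251 over all probe sets). Its Zfx differences were 0.60 with Myc and 0.58 with GFP and did not pass (adjusted p = 0.104 and 0.133).

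Kdm7a has 2 close relatives whose symbols lie outside the rule, Phf2 and Phf8. Phf2, a H3K9 demethylase, had 243, 228 and 206 in Zfx ko against 1630, 1485 and 1504 in Zfx wt with Myc. With GFP it had 337, 258 and 264 in Zfx ko against 1766, 1615 and 1857 in Zfx wt. Its groups were far apart: it was 6.83-fold lower in Zfx ko with Myc (95% interval 5.81 to 8.04, adjusted p = 1.54e-06) and 6.13-fold lower with GFP (95% interval 5.21 to 7.22, adjusted p = 2.79e-06). Phf8, which also demethylates H3K9 and H4K20, had 1001, 990 and 993 in Zfx ko against 868, 858 and 853 in Zfx wt with Myc. It was higher in Zfx ko by 0.21 on the log2 scale with Myc (adjusted p = 0.0428) and differed by 0.15 with GFP (adjusted p = 0.172).

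**Figure D4:**
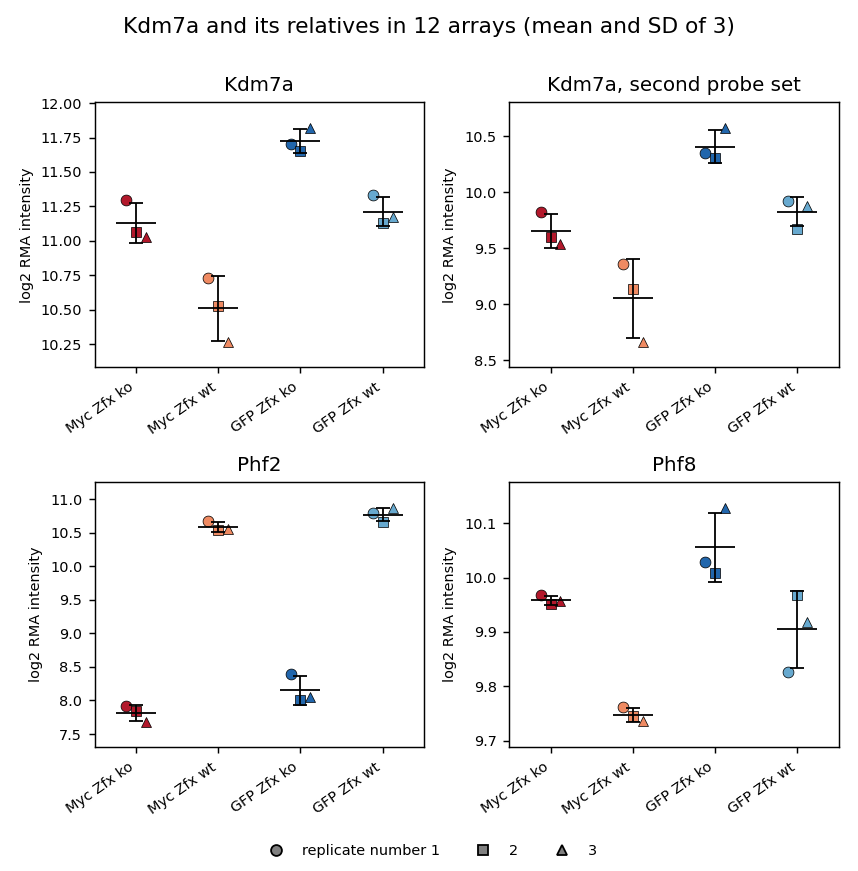
Log2 RMA intensity (y axis) of both Kdm7a probe sets, Phf2 and Phf8 in the 4 groups (x axis). Each point is an array, its symbol is the array number, and the bar is the mean ± SD of 3. Kdm7a is higher and Phf2 far lower in the arrays labelled Zfx ko.

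Among 21 measured genes outside the symbol rule, listed as methylation enzymes or relatives of them, 6 rose with Myc in each genotype and none fell. Carm1, Smyd2, Smyd5, Riox1 and Hspbap1 rose in both, Dot1l in Zfx ko and Smyd3 in Zfx wt. Between Zfx ko and Zfx wt, 1 was higher (Phf8) and 2 were lower (Phf2 and Smyd2) with Myc, and 3 were lower with GFP (Phf2, Smyd2 and Carm1). Smyd2, a lysine methyltransferase of p53 and other proteins, averaged 1096 ± 8.93 in Myc Zfx ko against 530 ± 99.9 in GFP Zfx ko, and 1604 ± 80.4 in Myc Zfx wt against 1007 ± 114 in GFP Zfx wt (SD, n = 3 each). It was 1.46-fold lower in Zfx ko with Myc (adjusted p = 0.0261) and 1.92-fold lower with GFP (adjusted p = 0.00187). Of 12 COMPASS subunit genes, Paxip1 was lower in Zfx ko under both viruses (1.17-fold with Myc, adjusted p = 0.0467, and 1.27-fold with GFP, adjusted p = 0.00881). With Myc, Ncoa6 was 1.39-fold lower and Cxxc1 1.23-fold higher (adjusted p = 0.0287 and 0.0243). Of 8 S-adenosylmethionine supply genes, Mtrr was higher in Zfx ko, by 1.54-fold with Myc and 1.37-fold with GFP (adjusted p = 0.00606 and 0.036), and Ahcyl1, a relative of the enzyme that clears S-adenosylhomocysteine, was lower by 1.23-fold and 1.26-fold (adjusted p = 0.0087 and 0.00631).

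Marker genes of other cell types moved with Zfx too. Of 14 mast cell and basophil markers, 5 were lower in Zfx ko with Myc and 3 with GFP, with sums of 5876 to 10085 in Myc Zfx ko against 11212 to 26334 in Myc Zfx wt, and 14531 to 19277 in GFP Zfx ko against 24470 to 30754 in GFP Zfx wt. Of 9 erythroid markers, 4 were higher in Zfx ko with Myc and 0 with GFP, with sums of 6111 to 11480 in Myc Zfx ko against 4835 to 6435 in Myc Zfx wt. Of 6 megakaryocyte markers, 1 was higher with GFP and 0 with Myc, with sums of 5806 to 17145 in Myc Zfx ko against 2110 to 7621 in Myc Zfx wt, and 21490 to 28003 in GFP Zfx ko against 7593 to 14358 in GFP Zfx wt. With the block, 5 of those 6 were higher under each virus. Of 12 proliferation genes, Cdk1 was lower in Zfx ko under both viruses and Mcm3 with GFP. Of 15 late neutrophil markers, Mmp8 was higher under both viruses and Chil3 was lower with Myc. Their part in the Zfx results was not tested.

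The study's own question, whether the Myc difference itself depends on Zfx, was tested with the interaction term for each gene. No member passed, and none of all 19938 genes did (limma, 0%). At an unadjusted p under 0.05 there were 0 members and 343 genes, or 1.72%, and with the block 0 members and 1 gene (0.00502%) passed. Point estimates ran from -0.20 for Kdm4c to 0.19 for Prmt7 on the log2 scale, and the lowest unadjusted p was 0.0593, for Setd3. The 95% intervals of the members reached as low as -0.73, for Kdm6a, and as high as 0.56, for Prmt7. Some were narrower, such as -0.24 to 0.06 for Setd5. A dependence within a member's own interval is not excluded at 3 arrays a group. The larger number of members that passed for Myc in Zfx ko than in Zfx wt is therefore not shown to be a difference between the genotypes.

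In all, 20 members passed in at least 1 of the 4 comparisons and 32 in none, of which 6 passed in at least 1 with the block. The share of all genes that passed in at least 1 comparison was not counted. These totals therefore do not show that the members differ from other genes. Ezh2, the main H3K27 methyltransferase of dividing cells, had 3333, 3051 and 3772 in Myc Zfx ko, 3324, 2747 and 3089 in Myc Zfx wt, 3162, 2786 and 3411 in GFP Zfx ko and 3383, 2734 and 3193 in GFP Zfx wt. The 4 groups overlapped. Its log2 difference was 0.12 with Myc in Zfx ko (95% interval -0.14 to 0.37) and -0.02 in Zfx wt (-0.28 to 0.23), and between genotypes 0.15 with Myc (-0.11 to 0.40) and 0.01 with GFP (-0.24 to 0.26). Of 10 genes for Polycomb repressive complex partners of Ezh2, Epop rose and Phf19 fell with Myc in each genotype, and 0 passed between genotypes. Phf19, an accessory subunit, fell 1.44-fold in Zfx ko and 1.62-fold in Zfx wt (adjusted p = 0.0496 and 0.0204).

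Neither Ezh1, a slower paralogue of Ezh2, nor the 3 H4K20 methyltransferases passed in any comparison. Kmt2a, which maintains Hox gene expression in blood progenitors, differed by 0.06 with Myc in Zfx ko (95% interval -0.16 to 0.28) and -0.07 in Zfx wt (-0.30 to 0.15). Kdm6a, an H3K27 demethylase, differed by -0.13 in Zfx ko (-0.55 to 0.30) and 0.00 in Zfx wt (-0.42 to 0.43). Kdm6b, its relative, differed by -0.30 with Myc in Zfx ko (adjusted p = 0.127, and 0.0378 with the block). Among the 4 members dimmer than the median probe set, Kdm4d lay between 49.6 and 57.9, Setd4 between 103 and 131, and Prmt8 and Prmt2 at the values given above. Over the members that passed in no direction, log2 differences lay between -0.30 and 0.38 with Myc in Zfx ko, -0.28 and 0.37 in Zfx wt, -0.39 and 0.35 between genotypes with Myc, and -0.34 and 0.31 with GFP. Second probe sets of Kmt2d, Setd1b and Setd3 did not pass in any comparison.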

How the data were processed

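Expression was measured on arrays for 12 samples, and the sample titles gave the 4 groups of 3, because Myc and GFP samples carry one and the same treatment text. Each value is an intensity of a probe set on a linear scale, made by the authors with RMA, per the submitters' processing notes; no software version is named there. RMA includes quantile normalization, which would hide a change in total RNA. For every test the log2 of the deposited value was taken, with no pseudocount. Of 35556 probe sets, 21789 had 1 gene symbol in the platform annotation, 1621 had several and 12146 had none listed. The brightest probe set of each gene was kept, which gave 19938 genes with no filter on dim ones.

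Groups were compared with limma 3.58.1 in R 4.3.3 (lmFit and eBayes, 4 group means over 12 arrays, 8 residual degrees of freedom), with Benjamini-Hochberg adjusted p under 0.05 over all genes. Unless another fit is named, each adjusted p comes from this one, and fold intervals are 95% intervals of single genes. The procedure was tested on simulated data with independent noise, so that test did not cover deviations shared by arrays of equal number. Pairs of arrays within a group correlated at 0.985 to 0.993, and 0 pairs were identical.

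Arrays of equal number in different groups deviated together from their group means, with correlations of 0.40 to 0.85 (18 pairs, median 0.64). On that basis, and not from the labels, a fit with the number as a block was run as an alternative. The main fit did not use the numbers, so what arrays of equal number share stays in its residual spread. Further alternatives were a second quantile normalization, median centring, a trended and robust prior, array weights, a fit of the compared groups alone, a fit of bright genes alone, all probe sets, and leaving out each array.

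Members and gene lists were chosen with earlier results of these data known. Array values are given for the 12 members with the lowest adjusted p over the comparisons, and other members have means, ranges or counts. Array values of Prmt6, Ezh2, Phf2 and Phf8 and the single partner genes were added after their values were seen.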

Additional observations from a re-analysis of the deposited data

How the results depend on the processing

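With the replicate number as a block, members that passed for Myc in Zfx wt numbered 15 in place of 8. With only the groups compared in the fit, members that passed between Zfx ko and Zfx wt with Myc numbered 5 in place of 10. The other settings that kept all 12 arrays left the counts within 1.5 times. Leaving out each array in turn gave 5 to 9 members for Myc in Zfx wt, 10 to 15 for Myc in Zfx ko, 4 to 8 for Zfx with GFP, 6 to 9 for Zfx with Myc and 0 to 0 for the interaction. The 20 members that passed gave 40 calls over the comparisons. None of the 40 reversed under any planned setting, and 20 were kept under every one, among them both Myc calls of Prmt5, Prmt7, Setd6 and Kdm7a and both Zfx calls of Kdm1a, Kdm2b and Ehmt2. No reversal could occur with the block, the trended and robust prior, all probe sets or the compared groups alone, which leave the log2 difference unchanged. The block lost 0 of the 40, and only the groups compared lost 12, with fewer arrays behind each estimate. A member dimmer than the median probe set carries less signal over background, and the table holds no background measure, so small differences in Prmt8 and Kdm4d could not be judged. Having 3 arrays a group limits all calls, and the labels do not say what equal numbers share.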
